A study of Mus musculus with 16 samples.

Results

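The Reg family comprises small secreted proteins built around a C-type lectin fold, several of which bind bacterial surfaces and keep microbes away from the epithelium. In the small intestine they are made by enterocytes and by secretory cells of the crypt. Reg3b and Reg3g are known to be induced by bacteria through MyD88 signalling in the epithelium and through interleukin-22 and STAT3, and Reg3g acts on Gram-positive bacteria. Retnlb, grouped here with the Reg genes, encodes resistin-like molecule beta, a bactericidal goblet cell protein induced by type 2 cytokines that belongs to the resistin family and is not a lectin.

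Expression of 6 genes, Reg1, Reg3a, Reg3b, Reg3g, Reg4 and Retnlb, was described in the ileum mucosa of mice lacking Schlafen 3, a gene linked to differentiation of the intestinal epithelium. The genes were chosen by symbol, and all 6 were present among the 46078 genes of the count table. RNA sequencing gave 16 libraries of 4 groups, namely 4 from male WT, 4 from male Slfn3KO, 4 from female WT and 4 from female Slfn3KO mice. All mice had a C57Bl/6 background and a labelled age of 8 weeks, while the paper's methods give an older age for mucosa. The knockout was genotyped in tail DNA, and no Cre or tissue-restricted promoter is named for it. WT mice were littermates with no further allele or treatment named in the labels.

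Between 20823279 and 30813117 reads per library were counted on genes, so that 3 counts corresponded to between 0.1 and 0.151 CPM, the counts per 1000000 counted reads. CPM here are scaled by TMM factors, which correct for differences in library composition. Slfn3 itself had at most 2 counts in any Slfn3KO library and at most 19 in any WT library, and 5 of the 8 WT libraries had at most 4 counts, so the targeted transcript was a weak check of genotype. In 4 libraries, male WT 3 and 4 and female WT 3 and 4, the sex transcripts Xist and Ddx3y went against the labelled sex. The labels were kept, and values without these 4 libraries are given beside the results they move most. In bulk RNA, fewer cells of a type and less RNA per cell cannot be told apart.

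Reg3b, Reg3a, Reg1 and Reg3g lie together on chromosome 6 of GRCm38 (mm10). Reg3b (ENSMUSG00000071356) spans chr6:78370657-78373466, Reg3a (ENSMUSG00000079516) spans chr6:78380709-78383827 and Reg1 (ENSMUSG00000059654) spans chr6:78422711-78428667, all on the plus strand, and Reg3g (ENSMUSG00000030017) spans chr6:78466269-78468872 on the minus strand. Reg4 (ENSMUSG00000027876) lies apart at chr3:98222156-98236748 on the plus strand, and Retnlb (ENSMUSG00000022650) at chr16:48816856-48818892 on the plus strand. The 250 bases before the RefSeq transcription start of Reg3b (chr6:78370635-78370884, plus strand), Reg3g (chr6:78468875-78469124, minus strand) and Reg4 (chr3:98221906-98222155, plus strand) are shown, because Reg3b and Reg3g moved together across the libraries and Reg4 did not move with them. Sequences are from RefSeq, GRCm38.p6, 5′ to 3′ on the strand of the gene. Capitals mark the motif TATAAA, the STAT-type motif TTCNNNGAA and a run of 20 bases shared by Reg3b and Reg3g.
Reg3b: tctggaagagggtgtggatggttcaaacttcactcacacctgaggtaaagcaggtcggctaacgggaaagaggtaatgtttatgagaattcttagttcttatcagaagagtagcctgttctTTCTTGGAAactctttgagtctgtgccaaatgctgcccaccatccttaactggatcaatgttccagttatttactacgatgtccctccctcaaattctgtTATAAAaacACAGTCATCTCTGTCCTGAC
Reg3g: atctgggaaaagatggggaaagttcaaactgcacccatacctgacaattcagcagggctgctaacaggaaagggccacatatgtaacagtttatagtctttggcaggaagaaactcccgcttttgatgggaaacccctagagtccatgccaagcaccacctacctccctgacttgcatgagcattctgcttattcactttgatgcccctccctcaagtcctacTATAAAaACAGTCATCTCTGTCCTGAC
Reg4: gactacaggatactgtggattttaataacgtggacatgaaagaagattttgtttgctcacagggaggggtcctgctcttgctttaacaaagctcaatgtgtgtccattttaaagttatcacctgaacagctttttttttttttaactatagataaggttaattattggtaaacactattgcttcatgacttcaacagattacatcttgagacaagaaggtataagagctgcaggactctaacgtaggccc

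The windows of Reg3b and Reg3g were identical at 69.2% of positions, and every other pair among the 5 genes with a window was identical at 51.2% to 57.2%. The shared run ACAGTCATCTCTGTCCTGAC occupied the last 20 bases before the start in both genes, and it occurred in 2 of 32851 promoter windows of the reference, those of Reg3b and Reg3g. TATAAA began 29 bases before the start of Reg3b, 27 before that of Reg3g and 30 before that of Reg1, and was not found in the windows of Reg3a and Reg4. A further match in Reg3g lay on the opposite strand and is not in capitals. On either strand, 12.4% of all windows held TATAAA, and 2.63% held it on the plus strand within the last 50 bases. TTCNNNGAA, whose sequence is the same on both strands, was found in the window of Reg3b, 129 bases before the start, and in 7.02% of all windows. The gene model that was counted begins inside this window for Reg3b. These matches describe the letters of the windows only.

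The coding sequences of Reg3b and Reg3g were 76.4% identical, those of Reg3a and Reg3b 75.3% and those of Reg3a and Reg3g 73.2%. Reads had 50 bases, and no stretch of 50 bases from any of the 6 genes occurred in a transcript of another gene. The nearest pair, Reg3b and Reg3g, differed by at least 3 bases in every 50.

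Reg3b and Reg3g were among the most abundant transcripts of the ileum. Together they took between 0.313% (exact 95% interval 0.311% to 0.315%, counting error only) and 5.55% (5.54% to 5.55%) of all counted reads in a library, with a median of 3.15%. Reg3b had the highest count of any gene in 10 of the 16 libraries. The lowest share was that of female WT 2, followed by male Slfn3KO 1 at 0.451% and male WT 4 at 0.555%, so that a library of very low share was found in 3 of the 4 labelled groups. By their sex transcripts, male WT 4 and female WT 2 would both be female. The ratio of Reg3b to Reg3g counts stayed between 1.85 and 2.47.

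**Figure D1:**
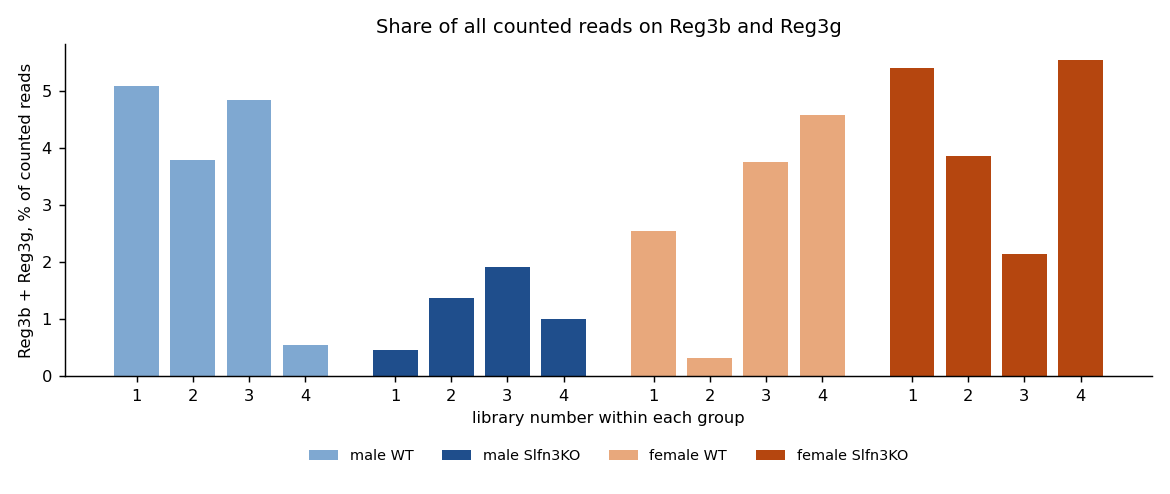
Percentage of all counted reads that fell on Reg3b and Reg3g (y axis) in each of the 16 libraries (x axis, numbered within group, coloured by labelled group). The 4 male Slfn3KO libraries lie between 0.451% and 1.91%, the 4 female Slfn3KO libraries between 2.15% and 5.55%, and each labelled WT group holds 1 library below 0.6%.

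To set the genes beside each other, counts were divided by the length of the coding transcript and scaled to transcripts per 1000000 transcripts (TPM). The median over the 16 libraries was 65519 TPM for Reg3b, 30191 TPM for Reg3g, 303 TPM for Reg3a, 134 TPM for Reg4, 4.94 TPM for Reg1 and 0.701 TPM for Retnlb. Reg3b was above Reg3g, Reg3g above Reg3a, and Reg4 above Reg1 in 16 of 16 libraries. Reg3a was above Reg4 in 13 of 16, the exceptions being male Slfn3KO 3 and female Slfn3KO 1 and 2, and Reg1 was above Retnlb in 13 of 16. With the exon length given in the count table, which for Reg3g is 2114 bases against a coding transcript of 771, the median of Reg3g was 11011 TPM, and its place in the order did not move. Neighbours with overlapping ranges over the libraries were Reg3b and Reg3g, Reg3a and Reg4, and Reg1 and Retnlb.

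Slfn3KO was compared with WT over both sexes with sex as a covariate, then in each sex. The 3 comparisons share libraries. At an adjusted p under 0.05 and 1.5-fold (edgeR quasi-likelihood test, Benjamini-Hochberg over all genes), 0 of the 6 genes and 0% of all 14822 genes tested were called over both sexes, 0% of 14124 in males and 0% of 14064 in females. DESeq2's Wald test at the same threshold called 54 genes over both sexes, 14 in the male and 506 in the female comparison. At an unadjusted p under 0.05 and 1.5-fold, 1 of 6 genes (Reg4, higher) was counted over both sexes against 6.64% of all genes, of which 1.65% higher and 4.99% lower. In males 3 of the 5 genes tested were counted, Reg4 higher and Reg3b and Reg3g lower, against 1.93% of all genes, of which 0.779% higher and 1.15% lower. In females 0 of 5 were counted, against 9.71% of all genes, of which 4.02% higher and 5.69% lower. For the difference between the sexes 1 of 6 was counted, Retnlb, against 6.38% of all genes, of which 3.2% higher and 3.18% lower. Without the WT libraries 3 and 4, Retnlb could also be tested in each sex. There 1 of 6 genes was counted over both sexes, higher, against 1.65% of all genes higher and 1.38% lower. In males 4 of 6 were counted, 1 higher and 3 lower, against 1.72% of all genes higher and 1.35% lower. In females 1 of 6 was counted, higher, against 8.64% of all genes higher and 7.07% lower. For the difference between the sexes 3 of 6 were counted, all higher, against 11.2% of all genes higher and 9.3% lower. With all libraries the median log2 fold change over both sexes was 0.11 for the 6 genes and -0.0037 for all genes.

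**Figure D2:**
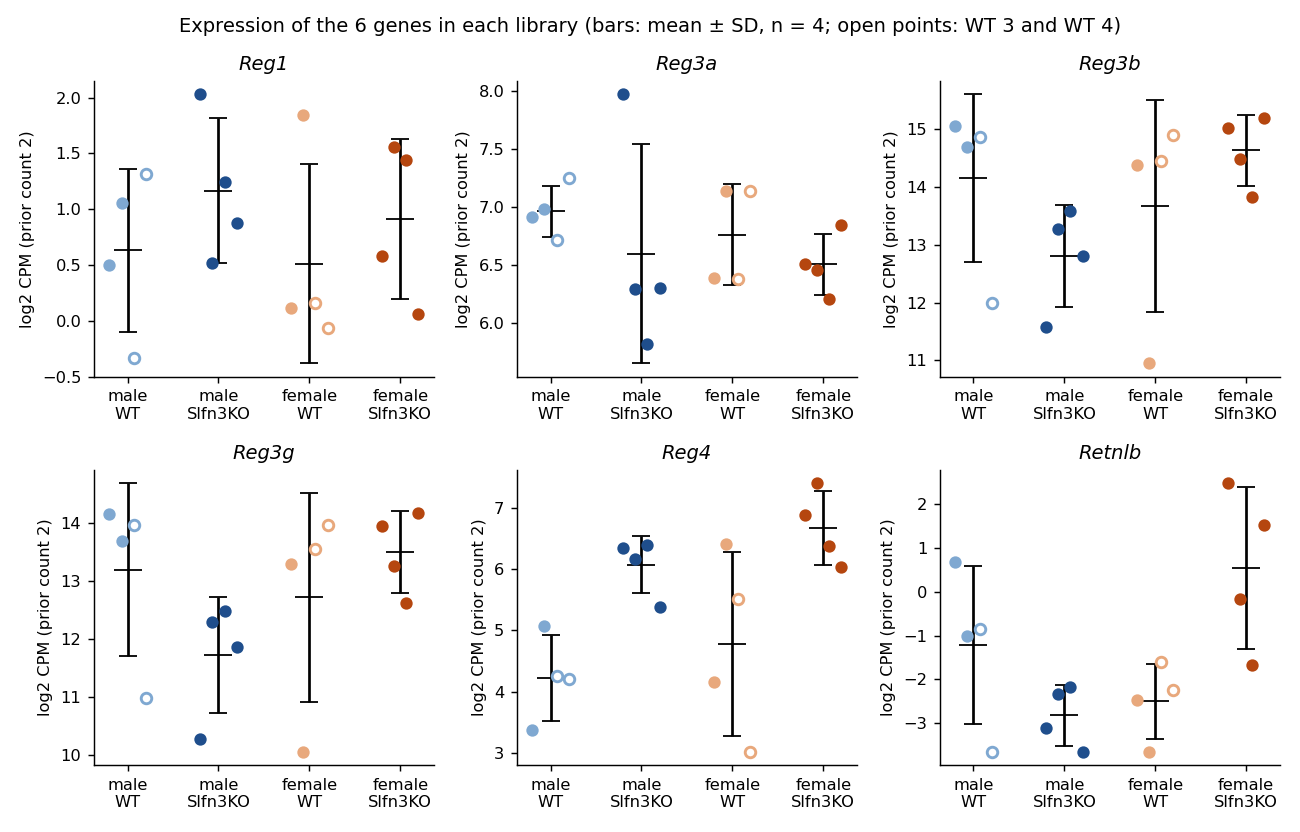
Expression of Reg1, Reg3a, Reg3b, Reg3g, Reg4 and Retnlb as log2 CPM with a prior count of 2 (y axes differ between panels) in each library of the 4 labelled groups, with mean ± SD (n = 4). Open points are the WT libraries 3 and 4. Reg4 is the panel in which all 4 male Slfn3KO libraries lie above all 4 male WT libraries.

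Reg4, a family member known from secretory and enteroendocrine cells of the gut, was higher in Slfn3KO mucosa. In male WT libraries it measured 10.2, 33.5, 19.1 and 18.3 CPM, and in male Slfn3KO libraries 81.0, 71.7, 84.0 and 41.7 CPM. In female WT libraries it measured 17.8, 85.1, 45.8 and 8.02 CPM, and in female Slfn3KO libraries 118, 169, 82.7 and 65.2 CPM. The male groups did not overlap, whereas the female groups overlapped through female WT 2, the highest WT library of either sex. These groups follow the labels. By its sex transcripts female WT 3, at 45.8 CPM, would stand with male WT, above male Slfn3KO 4 at 41.7 CPM. The male genotypes would then overlap, as the female genotypes would. Absence of overlap between the male genotypes was found in 2.36% of all genes tested in males, and among the 6 genes for Reg4 alone. It was found in 7.89% of all genes in females and 0.027% over both sexes, and there for 0 of the 6 genes. The mean of male WT was 20.3 ± 9.68 CPM (SD, n = 4), and that of male Slfn3KO was 69.6 ± 19.3 CPM (SD, n = 4). The mean of female WT was 39.2 ± 34.5 CPM (SD, n = 4), and that of female Slfn3KO was 109 ± 45.8 CPM (SD, n = 4).

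Over both sexes Reg4 was 3.08-fold higher in Slfn3KO (log2 fold change 1.62, standard error 0.393, unadjusted p = 0.000816, adjusted p = 0.327, edgeR), which placed it 28th by p among 14822 genes. The fold was 3.44 in males (log2 1.78, standard error 0.369, adjusted p = 0.925, edgeR) and 2.75 in females (log2 1.46, standard error 0.648, adjusted p = 0.293, edgeR), and the difference between the sexes was -0.31 on the log2 scale (standard error 0.789). On mean log2 CPM, the exact two-sided permutation test within labelled sex gave a difference of 1.87 and p = 0.00163 over both sexes, 1.85 and p = 0.0286 in males, the smallest p that 70 labellings can give, and 1.89 and p = 0.0857 in females. These are 3 of 18 such tests over the 6 genes, without adjustment, and 2 of the 18 had a p under 0.05, both for Reg4. On leaving out each of the 8 male libraries in turn, the male exact p was 0.0571 for 4 of them (Slfn3KO 1, 2 and 3 and WT 1) and 0.0286 for the other 4. DESeq2's Wald test called Reg4 over both sexes (adjusted p = 0.0117) and in males (adjusted p = 0.00107). Without the WT libraries 3 and 4, the log2 fold change was 1.35 over both sexes (adjusted p = 0.761, edgeR), 1.67 in males and 1.06 in females, and the permutation p was 0.0178 over both sexes and 0.0667 in males, the smallest p possible there.

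Markers of Paneth cells, the crypt cells that secrete antimicrobial peptides, moved with the same contrast. All 10 listed markers were on the higher side over both sexes, 8 of them at an unadjusted p under 0.05 and 1.5-fold against 1.65% of all genes, with a median log2 fold change of 1.04 and 0 called after adjustment. Their summed level ranged from 1299 to 8870 CPM in WT and from 5119 to 14809 CPM in Slfn3KO, and Ang4, an angiogenin with bactericidal activity, had the largest value (log2 1.4, standard error 0.375, adjusted p = 0.327, edgeR). In males, where Reg4 had a log2 fold change of 1.78, 9 of the 10 were on the higher side with a median of 0.45 and 0 counted. In females, where Reg4 was at 1.46, all 10 were on the higher side and counted, against 4.02% of all genes, with a median of 1.62. The median without the WT libraries 3 and 4 was 0.745 over both sexes with 2 of 10 counted, -0.22 in males with 0 counted and 2.12 in females with 10 counted. Of all genes, 1.65% were counted higher there over both sexes and 8.64% in females. Across the 16 libraries Reg4 and the mean log2 CPM of the Paneth markers had r = 0.624 (permutation p = 0.00982, adjusted p = 0.0524) and rho = 0.585 (permutation p = 0.0193, adjusted p = 0.0618), with r = 0.835 without the 2 farthest libraries, 0.168 within WT and 0.669 within Slfn3KO. These permutations did not keep to the groups, so differences between group means enter r and p. On deviations from the group means r was 0.26. Goblet cell markers had a median of 0.10 over both sexes, with 7 of 10 on the higher side and 0 counted. Their mean log2 CPM had r = 0.594 with Reg4 (permutation p = 0.0144, adjusted p = 0.0628) and rho = 0.647 (permutation p = 0.00775, adjusted p = 0.0348), with r = 0.668 without the 2 farthest libraries, 0.144 within WT, 0.516 within Slfn3KO and 0.0862 on deviations from the group means. Enteroendocrine markers had a median of -0.00747, with 6 of 12 on the higher side and 2 counted, both higher, against 1.65% of all genes. The transcription factor Neurog3 had the largest value (0.78). In males 10 of 12 were on the higher side with a median of 0.40, and in females 10 of 12 were on the lower side with a median of -0.35. For the difference between the sexes 5 of 12 were counted lower against 3.18% of all genes, and 0 were called after adjustment. The part of cell composition in the Reg4 difference was not tested.

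Reg3b and Reg3g had lower means in Slfn3KO than in WT among males and higher means among females, with wide spread and overlap in both labelled sexes. Reg3b measured 34030, 26590, 29839 and 4069 CPM in male WT and 3056, 9849, 12350 and 7197 CPM in male Slfn3KO. In females it measured 21349, 1978, 22381 and 30696 CPM in WT and 33231, 23004, 14461 and 37519 CPM in Slfn3KO. In each labelled sex 1 WT library, male WT 4 or female WT 2, was far below the other 3. Without it the male genotypes would not overlap for Reg3b, whereas the female genotypes overlapped with or without it. Male WT 4 is also 1 of the 4 libraries whose sex transcripts went against the label. By these transcripts it would stand with female WT 2, so both low WT libraries would be female. Female WT 3 and 4 would then stand with male WT 1 and 2, all above the male Slfn3KO libraries for Reg3b. The female genotypes would still overlap, and this grouping was not tested. Reg3g repeated this order, with 18356, 13254, 16051 and 2009 CPM in male WT and 1235, 5002, 5740 and 3735 CPM in male Slfn3KO. In females Reg3g measured 10076, 1057, 12107 and 16153 CPM in WT and 15844, 9871, 6287 and 18550 CPM in Slfn3KO.

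In males the fold was 0.342 for Reg3b (log2 -1.55, standard error 0.644, unadjusted p = 0.041, adjusted p = 0.925, edgeR) and 0.315 for Reg3g (log2 -1.67, standard error 0.680, unadjusted p = 0.0384, adjusted p = 0.925, edgeR). In females the log2 fold changes were 0.50 (standard error 0.682) and 0.36 (standard error 0.687), and over both sexes they were -0.52 (standard error 0.577) and -0.65 (standard error 0.589), none at an unadjusted p under 0.05. The difference of the genotype effect between the sexes, female minus male, was 2.04 for Reg3b (standard error 0.996, adjusted p = 0.461, edgeR) and 2.02 for Reg3g (standard error 1.03, adjusted p = 0.461, edgeR), so a difference between the sexes was not shown. With the replicate number as a block, the male values were -1.35 and -1.47 with unadjusted p of 0.103 and 0.111 (edgeR). The exact permutation test gave p = 0.171 for Reg3b and p = 0.143 for Reg3g in males. Leaving out male WT 4 gave differences of -2.06 and -2.21 in mean log2 CPM with p = 0.0286 in this exact test, and leaving out female WT 2 brought the female log2 fold changes to 0.12 and -0.02. Without the WT libraries 3 and 4, the log2 fold changes were -1.89 and -2.0 in males and 1.21 and 1.18 in females, and the sexes differed by 3.12 and 3.19 (adjusted p = 0.111 and 0.11, edgeR).

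**Figure D3:**
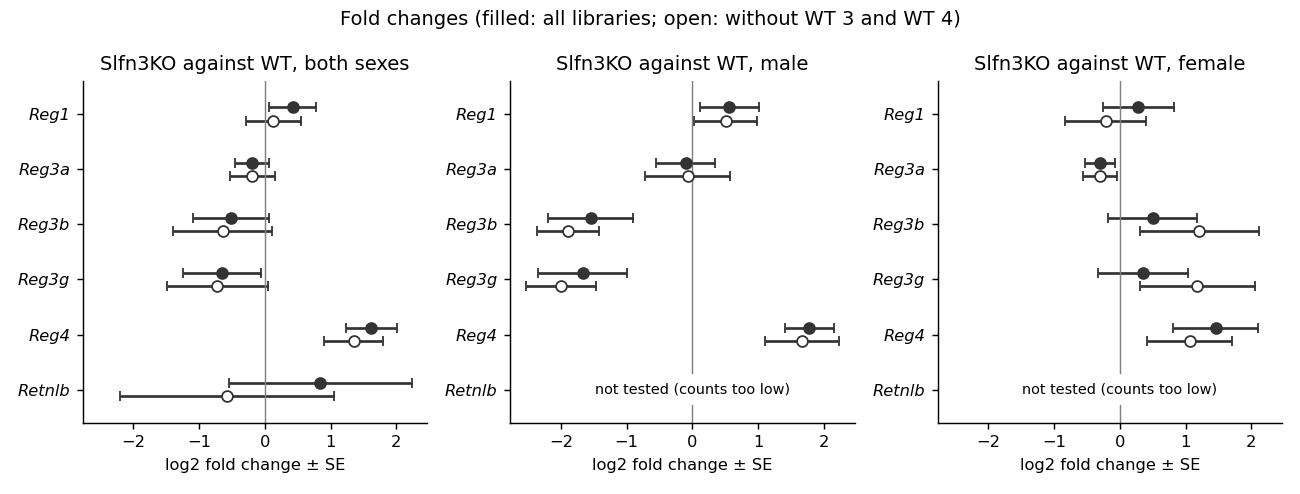
Log2 fold change of Slfn3KO against WT with its standard error (x axis) for each gene (y axis) over both sexes, in males and in females, from edgeR with all libraries (filled) and without the WT libraries 3 and 4 (open). Reg4 lies above 0 in all panels, and Reg3b and Reg3g lie below 0 in males and above 0 in females. With all libraries Retnlb had too few counts to be tested in each sex, and no value is drawn for it there in either setting.

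Reg3a, the third Reg3 gene measured, varied over a narrower range. It measured 120, 126, 105 and 152 CPM in male WT and 251, 78.2, 56.1 and 78.9 CPM in male Slfn3KO, where library 1 stood apart and the other 3 lay below all male WT libraries. In females it measured 83.6, 141, 82.9 and 141 CPM in WT and 91.0, 87.8, 73.7 and 115 CPM in Slfn3KO. The log2 fold change was -0.20 over both sexes (standard error 0.257, adjusted p = 0.757, edgeR), -0.10 in males and -0.30 in females. Leaving out male Slfn3KO 1, the highest library of all, gave a difference in mean log2 CPM of -0.54 over both sexes (exact permutation p = 0.0122) and -0.83 in males (exact permutation p = 0.0286).

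Reg1, first known from regenerating pancreatic islets, was detected at low level. It measured 1.34, 2.0, 0.714 and 2.41 CPM in male WT, 4.0, 1.35, 2.3 and 1.76 CPM in male Slfn3KO, 1.0, 3.51, 1.04 and 0.876 CPM in female WT and 1.42, 2.86, 2.64 and 0.963 CPM in female Slfn3KO. All 4 groups overlapped, and the log2 fold change over both sexes was 0.42 (standard error 0.363, adjusted p = 0.661, edgeR). It was 0.75 without female WT 2 (unadjusted p = 0.0318, adjusted p = 0.322, edgeR) and 0.13 without the WT libraries 3 and 4. Its neighbours Reg2 and Reg3d, also known from pancreas, had at most 1 count and between 0.373 and 1.59 CPM in any library, and Reg3d had a log2 fold change of 0.04 over both sexes. Of 12 markers of the exocrine pancreas, 10 had at most 3 counts in every library, including the digestive enzymes Cpa1, Prss2 and Pnlip. The 2 that could be tested were on the higher side over both sexes. Of these, Pnliprp1 was counted higher at an unadjusted p, against 1.65% of all genes (log2 1.4, standard error 0.403, unadjusted p = 0.00325, adjusted p = 0.327, edgeR).

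Retnlb was near the detection limit in most libraries and reached its highest counts in female Slfn3KO. It had 46, 12, 14 and 0 counts in male WT and 1, 3, 4 and 0 counts in male Slfn3KO. It had 2, 0, 6 and 3 counts in female WT and 128, 20, 6 and 70 counts in female Slfn3KO, the last corresponding to 5.51, 0.818, 0.233 and 2.81 CPM. The 3 libraries without a count allow up to 0.125, 0.143 and 0.127 CPM. The order of the genotypes turned between the sexes, with a difference in mean log2 CPM of -1.62 in males (exact permutation p = 0.171) and 3.04 in females (exact permutation p = 0.0571).

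The difference of the genotype effect between the sexes was 7.14 for Retnlb on the log2 scale (standard error 1.67, unadjusted p = 0.000692, adjusted p = 0.441, edgeR). This estimate rests on groups with totals of 8 and 11 counts and is imprecise as a fold. Without the WT libraries 3 and 4 it was 9.07 (adjusted p = 0.0453, edgeR). There 359 genes were called in place of 0, and of the 6 genes Retnlb alone. At an unadjusted p under 0.05 and 1.5-fold, 11.2% of all genes were counted higher there and 9.3% lower. Over both sexes the log2 fold change of Retnlb was 0.84 (standard error 1.39), and it turned to -0.58 without the WT libraries 3 and 4. Among genes of the interleukin-4 and interleukin-13 axis, which induces Retnlb, Il4 and Il13 had at most 3 counts in every library. All 5 that could be tested were on the lower side over both sexes, with a median of -0.25. Counted lower was 1 of the 5, the transcription factor Gata3 (-0.59), against 4.99% of all genes.

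Across the 16 libraries Reg3b and Reg3g were almost proportional. Pearson's r of log2 CPM was 0.996 and Spearman's rho 0.982 (permutation p = 1e-05 for both, the smallest that 100000 permutations can give, adjusted p = 0.00015 over 15 pairs of genes). The same 3 libraries were lowest for both genes, r was 0.994 without the 2 libraries farthest from the median, 0.999 within WT and 0.995 within Slfn3KO. Retnlb followed Reg3b in the same direction, with r = 0.771 (permutation p = 0.00083, adjusted p = 0.00349), rho = 0.882 (permutation p = 3e-05, adjusted p = 0.000225), 0.773 without the 2 farthest libraries, 0.797 within WT and 0.889 within Slfn3KO. Reg1 went the other way, with r = -0.726 against Reg3b (permutation p = 0.00131, adjusted p = 0.00393), rho = -0.676 (permutation p = 0.00511, adjusted p = 0.0153), -0.526 without the 2 farthest libraries, -0.832 within WT and -0.618 within Slfn3KO. Reg3a and Reg4 had r = -0.367 and r = -0.256 against Reg3b, with permutation p of 0.161 and 0.342, and rho = 0.0206 and rho = -0.262, with permutation p of 0.944 and 0.328.

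**Figure D4:**
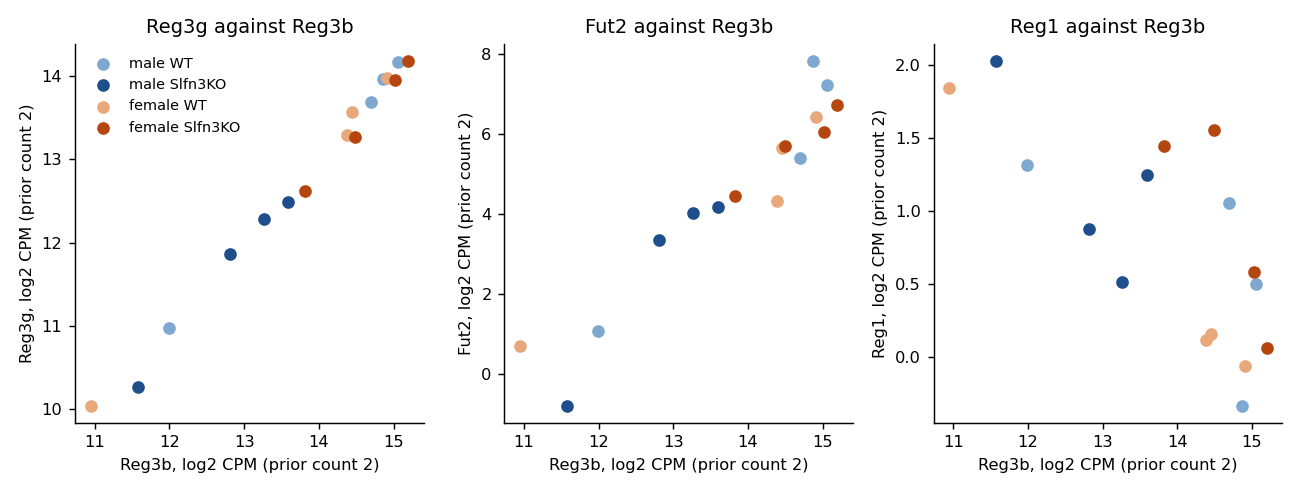
Reg3g, Fut2 and Reg1 (y axes) against Reg3b (x axes) as log2 CPM with a prior count of 2 in the 16 libraries, coloured by labelled group. Reg3g and Fut2 increase with Reg3b over the whole range, Reg1 decreases, and the 3 libraries lowest in Reg3b come from 3 labelled groups.

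The genes whose log2 CPM followed Reg3b most closely over the 16 libraries were Gmds (r = 0.959), Fut2 (r = 0.95) and Gpx2 (r = 0.942), and those most like Reg3g were Fut2 (r = 0.965), Gmds (r = 0.96) and Gpx2 (r = 0.944). Fut2 transfers fucose to surface glycans of the epithelium, Gmds makes the fucose donor GDP-fucose and Gpx2 is an epithelial glutathione peroxidase. Fut2 measured 148, 42.3, 224 and 2.04 CPM in male WT and 0.505, 16.1, 17.9 and 10.2 CPM in male Slfn3KO. In females it measured 19.8, 1.57, 49.9 and 85.6 CPM in WT and 65.7, 52.0, 21.9 and 106 CPM in Slfn3KO. Male WT 4, female WT 2 and male Slfn3KO 1 were thus the 3 lowest libraries for Fut2 as for Reg3b. Fut2 had a log2 fold change of -3.24 in males (standard error 1.28, adjusted p = 0.925, edgeR) and 0.64 in females.

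For the other genes the most similar were Serf1 (r = 0.896), Slc22a3 (r = 0.891) and Kcnh6 (r = 0.886) for Reg1, Golph3l (r = 0.866), Slc25a37 (r = 0.828) and Akr1c19 (r = 0.814) for Reg3a, Gm36936 (r = 0.876), Syn3 (r = 0.869) and Gne (r = 0.844) for Reg4, and Nipal2 (r = 0.946), Mal2 (r = 0.916) and Golm1 (r = 0.912) for Retnlb. These were the 3 highest r among all genes, so they have no p-value.

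The mean log2 CPM of 13 other epithelial genes known to respond to microbes, among them Fut2, followed Reg3b with r = 0.927 and rho = 0.868 (permutation p = 1e-05 and 3e-05, adjusted p = 0.00024 and 0.00096 over 48 relations of genes with lists), 0.892 without the 2 farthest libraries, 0.936 within WT and 0.928 within Slfn3KO. The list was chosen with earlier results of these data known. It holds Fut2, which was among the genes most like Reg3b, so these p-values give no independent support. Of the 13 genes, 10 were on the lower side in Slfn3KO over both sexes with a median of -0.48. Counted were 2 lower and 2 higher, against 4.99% of all genes lower and 1.65% higher. The acute-phase gene Saa1 had the largest value (-1.91, standard error 1.15). In males the median was -0.58 and in females 0.00492. The medians without the WT libraries 3 and 4 were -0.22 over both sexes, -0.41 in males and 0.69 in females. Ang4 and Itln1 stand in this list and among the Paneth markers, and they were the 2 genes counted higher. The summed level of the 13 genes spanned 2113 to 8977 CPM in WT and 2510 to 8847 CPM in Slfn3KO.

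Genes upstream of Reg3b and Reg3g were listed as well. Of 19 genes of the interleukin-22, interleukin-17 and STAT3 axis, 13 could be tested, and all 13 were on the lower side over both sexes with a median of -0.20, where 50.7% of all genes lay on the lower side. Counted lower was 1 of the 13, against 4.99% of all genes, Il22ra2, the soluble receptor that neutralizes interleukin-22 (-1.55, standard error 0.570, adjusted p = 0.333, edgeR). The mean of this list had r = 0.186 with Reg3b (permutation p = 0.492) and rho = 0.0559 (permutation p = 0.837). With Reg4 it had r = -0.731 (permutation p = 0.00111, adjusted p = 0.0133) and rho = -0.726 (permutation p = 0.00229, adjusted p = 0.0183), with r = -0.798 without the 2 farthest libraries, -0.445 within WT, -0.824 within Slfn3KO and -0.547 on deviations from the group means. Of 12 genes of Toll-like receptor and MyD88 signalling, 8 were on the lower side with a median of -0.06. Counted lower was 1 of the 12, against 4.99% of all genes, Tlr9, a receptor for bacterial DNA (-2.17, standard error 0.842, adjusted p = 0.336, edgeR). With the WT libraries 3 and 4 omitted, 11 of 13 genes of the first list were on the lower side with a median of -0.13 and 0 counted. Of the second list, 4 of 12 were on the lower side with a median of 0.21 and 1 counted, higher, against 1.65% of all genes.

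Markers of other cells of the mucosa were examined as well. All 10 markers of B cells and follicles were on the lower side in Slfn3KO over both sexes and counted at an unadjusted p against 4.99% of all genes, with a median of -3.01, 0 called after adjustment and sums from 5.15 to 988 CPM in WT and from 2.67 to 143 CPM in Slfn3KO. All 10 were counted in females, against 5.69% of all genes lower, and 0 in males. With the WT libraries 3 and 4 omitted, 9 of 10 were on the higher side over both sexes, with a median of 0.12 and 0 counted. Their mean level had r = -0.015 with Reg3b (permutation p = 0.955, rho = -0.0176) and r = -0.352 with Reg4 (permutation p = 0.18, rho = -0.241). T cell markers had a median of -0.60, with 3 of 8 counted lower against 4.99% of all genes (-0.37 and 0 counted without the WT libraries 3 and 4). Absorptive enterocyte markers had a median of -0.33, with 0 of 10 counted (-0.60 and 2 counted lower without those libraries, against 1.38% of all genes). Markers of the ileum were present in every library, with sums from 4460 to 20241 CPM in WT and from 5942 to 17128 CPM in Slfn3KO, a median log2 fold change of -0.16 (0.11 without the WT libraries 3 and 4) and r = -0.26 with Reg3b (permutation p = 0.331, rho = -0.0471). Of 7 markers of the proximal small intestine, 5 were on the lower side over both sexes with a median of -0.77 and 0 counted. In females their median was -1.82 with 3 counted lower against 5.69% of all genes, the glucose transporter gene Slc2a2 at -5.05 (standard error 1.55, adjusted p = 0.237, edgeR). Their mean log2 CPM had r = -0.304 with Reg3b (permutation p = 0.25, rho = -0.418) and r = -0.409 with Reg4 (permutation p = 0.116, rho = -0.45). Enteroendocrine markers, at r = 0.198 with Reg4 (permutation p = 0.464, rho = 0.144), had r = -0.661 with Reg3b (permutation p = 0.00507, adjusted p = 0.0304) and rho = -0.741 (permutation p = 0.00137, adjusted p = 0.0164), with r = -0.5 without the 2 farthest libraries, -0.52 within WT and -0.879 within Slfn3KO. The part of mucosal composition in the Reg gene levels was not tested.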

How the data were processed

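Ileum mucosa RNA from 16 mice was sequenced by the authors as single 50-base reads, trimmed with cutadapt, aligned to mm10 with STAR and deposited as raw counts per gene. Counting is credited to HTSeq in the paper and to featureCounts in the file header, with reverse-stranded counting (version 1.4.6 in the submitters' processing notes, which also list DESeq2 1.22.2). Reads carry no molecular identifiers, so intervals and floors cover counting error only.

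Libraries were grouped by the labels of sex and genotype, and the 6 genes and the lists of other genes were chosen with earlier results of these data known. Gene names came from GENCODE M21, which matched 45143 of 46078 identifiers. Counts were scaled with TMM factors and tested with edgeR 4.0.16 in R 4.3.3 (filterByExpr, robust quasi-likelihood fit, sex as a covariate over both sexes, interaction for the sexes), with Benjamini-Hochberg adjustment over all genes tested. Levels were tested as log2 CPM with a prior count of 2 by exact two-sided permutation (4900 labellings within sex, 70 in 1 sex), and correlations by 100000 permutations, with scipy 1.17.1. The permutations of correlations ran over all 16 libraries and did not keep to the groups. Sets of genes were described by counts and medians, without a test. No 2 libraries of a group agreed within sampling noise (chi-square over degrees of freedom at least 24.2). The edgeR and DESeq2 fits and the exact permutation of 4 against 4 libraries were tested on simulated data, and the other steps were not.

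Named genes were the 6 genes, Reg2, Reg3d, Slfn3, the 3 genes most like each of the 6, and from some lists the gene with the largest fold change over both sexes. The lists of goblet, absorptive enterocyte, B cell, T cell and ileum markers are given without that gene. Cpa1, Prss2, Pnlip, Il4, Il13 and Itln1 were named after their counts were seen. Alternatives were RLE factors, total count scaling, DESeq2 1.42.0, other count filters, no adjustment, no fold threshold, no covariate, 1 fit of all groups, the replicate number as a block, leaving out the WT libraries 3 and 4, and leaving out each library. Alternatives for the permutation tests, and the lists without the WT libraries 3 and 4, were added after the data were seen. Replicate numbers name different mice. Deviations from the group means of same-numbered WT and Slfn3KO libraries correlated with r between 0.138 and 0.518 in males and between -0.362 and 0.143 in females.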

Additional observations from a re-analysis of the deposited data

Results flagged for a closer look

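On the CPM scale, 2 values in 24 groups of 4 libraries stood apart from the rest of their group by more than Dixon's 95% critical ratio for 4 values, a limit that chance exceeds in about 1 group in 20. Reg1 in female WT 2 was 3.51 CPM, the highest of its group, with a gap to the next library of 0.939 of the range. Reg3a in male Slfn3KO 1 was 251 CPM, also the highest of its group, with a ratio of 0.883. On the log2 CPM scale, a choice added after the data were seen, 4 values passed the same limit, namely Reg1 in female WT 2 (ratio 0.883), Reg3b in male WT 4 (0.884) and female WT 2 (0.868), and Reg3g in male WT 4 (0.853), while Reg3a in male Slfn3KO 1 did not (0.773).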

How the results depend on the processing

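Of 730 values obtained under alternatives, 694 kept their direction and their side of the threshold, 16 turned direction, 15 gained significance and 5 lost it. DESeq2 called 54 genes over both sexes, 14 in males, 506 in females and 19 for the difference between the sexes, in place of 0 by edgeR, and called Reg4 over both sexes (1.62) and in males (1.78). With an unadjusted p the counts were 984, 272, 1366 and 946, and Reg4 over both sexes (1.62) and in males (1.78), Reg3b (-1.55) and Reg3g (-1.67) in males and the Retnlb difference between the sexes (7.14) passed. Without the WT libraries 3 and 4 the count for the difference between the sexes was 359 and Retnlb there was 9.07, Retnlb over both sexes turned to -0.58, Reg1 in females to -0.22 (mean log2 CPM -0.0694), and Reg4 in males kept a difference of 1.85 with an exact permutation p of 0.0667. The cause of these shifts was not tested. Leaving out each library left every count at 0.

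Replicate numbers gave every male pair a correlation above 0.1 but not every female pair. With the replicate block, counts stayed at 0 (876, 447, 844 and 654 at an unadjusted p over both sexes, in males, in females and for the difference between the sexes), Reg4 was 1.86 over both sexes (adjusted p = 0.222, edgeR), Reg3b and Reg3g in males were -1.35 and -1.47 with unadjusted p of 0.103 and 0.111, and the differences between the sexes turned to 0.13 for Reg3a and 0.0372 for Reg4. No gene passed or lost the threshold with the block.

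On leaving out 1 library, log2 fold changes ranged from -0.82 to 0.13 for Reg3a in males and from -0.02 to 0.71 for Reg3g in females, turning in direction without male Slfn3KO 2, 3 or 4 (0.0464, 0.128, 0.0497) and without female WT 2 (-0.0225). For the difference between the sexes the ranges were -0.52 to 0.44 for Reg1, -0.43 to 0.52 for Reg3a and -0.69 to 0.38 for Reg4, turning without male Slfn3KO 1 (0.112 for Reg1, 0.521 for Reg3a) or female WT 2 (0.441 for Reg1, 0.384 for Reg4). Mean log2 CPM differences ranged from -0.64 to 0.0154 for Reg3b over both sexes (0.0154 without male Slfn3KO 1, 0.0153 without female WT 4) and from -0.11 to 1.20 for Reg3g in females (-0.109 without female WT 2). They ranged from -0.54 to -0.18 for Reg3a over both sexes and -0.83 to -0.11 in males, from -2.06 to -0.93 for Reg3b, -2.21 to -0.99 for Reg3g, -2.44 to -0.99 for Retnlb and 1.56 to 2.13 for Reg4 in males, and from 1.31 to 2.44 for Reg4 and 2.39 to 3.78 for Retnlb in females, where the exact p crossed 0.05 for 4 of 8 libraries left out for Reg4 in males and for 1 library in each of the others.

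Groups of 4 limit the exact test to p = 0.0286, Retnlb counts are too few for a precise fold, and the sex labels of 4 WT libraries go against their transcripts.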
